A study of Mus musculus with 8 samples.

Results

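Kinesin motor genes are described here across 8 libraries of mouse femoral bone shaft. They were taken as the rows of the deposited expression table whose symbol begins with Kif followed by a digit, which gave 31 of 14457 genes. Of these, 10 are mitotic motors named by the rule (Kif2c, Kif4, Kif11, Kif15, Kif18a, Kif18b, Kif20a, Kif20b, Kif22 and Kif23). Another 13 were classed by known role as transport kinesins, among them Kif21a and Kif21b, which also act on microtubule growth and dynamics. The remaining 8 were classed as other kinesins, which act in cilia, in signalling or as microtubule depolymerases. The class of other kinesins also holds Kif14, a motor of cytokinesis that the rule does not list among the mitotic set. Kinesins with other symbols, such as Kifc1 and Cenpe, were kept apart.

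Kinesins are motor proteins that hydrolyse ATP to move along microtubules or to take them apart. A first group acts when cells divide, and its genes are transcribed mainly late in the cell cycle, so their RNA marks dividing cells. A second group carries vesicles, organelles and membrane proteins through the cell and builds the primary cilium, an antenna that bone cells use in Hedgehog signalling and in sensing fluid flow. In the postnatal bone shaft, dividing cells include blood cell progenitors of the marrow as well as skeletal progenitors, whereas mature osteoblasts and osteocytes have left the cell cycle.

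The study asked what molecular changes go with the disturbed osteoblast maturation of mice lacking SLC26A2, a sulfate transporter. Bulk RNA was sequenced from femoral bone shafts at postnatal day 7. The 4 CKO libraries came from Col2.3kb-Cre; Slc26a2 fl/fl mice and the 4 control libraries from Col2.3kb-Cre; Slc26a2 fl/+ mice, so both groups carried the Cre transgene and at least 1 floxed allele. The Col2.3kb promoter fragment is active in osteoblasts, so other cells of the shaft, including marrow, keep the gene, and the RNA is that of the whole shaft. The labels do not say that each library is a separate mouse, so p-values measure the spread between these libraries.

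The values are FPKM (fragment counts divided by transcript length and by the mapped fragments of the library) as the authors deposited them, and levels can therefore be set side by side between genes. Slc26a2 itself, the check of the labels, was at 4.37 to 7.49 FPKM in control and 0.706 to 2.93 FPKM in CKO (p = 0.0286 in an exact two-sided permutation test, the lowest value possible with 70 assignments). All 14 osteoblast and osteocyte markers were present, with sums of 42771 to 54207 FPKM in control and 14784 to 49201 FPKM in CKO. Markers of marrow lineages were present too. Sums over 15 neutrophil markers were 925 to 4310 FPKM in control and 6530 to 28540 FPKM in CKO, and sums over 10 B lineage markers were 76.5 to 447 FPKM and 209 to 543 FPKM. By limma 3 of the 15, none of the 10 and none of the 14 bone markers passed the test. Over all 12748 genes tested 3.88% were called higher in CKO and 0.651% lower. Of the 14 bone markers, 13 had a log2 fold change below 0, with a median of -0.77. Erythroid markers (13 genes, of which 4 rose) summed to 3086 to 10525 FPKM in control and 12803 to 56055 FPKM in CKO. None of these markers was listed at 0 in any library. In bulk RNA, a change in the number of cells of a type and a change in RNA per cell cannot be told apart. FPKM totals were 352283 to 379669 in control and 431612 to 598419 in CKO. CKO replicate 4 stood apart from the other libraries, with 155 genes listed at 0 against 5 to 31 elsewhere. Its osteoblast and osteocyte sum was 49201 FPKM, against 27478, 22035 and 14784 FPKM in CKO replicates 1 to 3. Its sum over 10 skeletal muscle markers was 7996 FPKM. That muscle sum was 1767, 2697 and 138 FPKM in CKO replicates 1 to 3 and 48.1 to 2859 FPKM in control. Y-linked genes were at 0 in 4 libraries (replicate 1 of the controls, replicates 1 to 3 of the CKO) and above 0 elsewhere, so 1 control and 3 CKO libraries lacked them.

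Mitotic kinesins had higher mean levels in CKO than in control in all 10 cases, but Kif22 alone passed the test. The 10 ranged in mean from 3.65 FPKM for Kif20b to 22.6 FPKM for Kif22 over the 8 libraries. Their median log2 fold change, on log2(FPKM + 1), was 0.42, with a range from 0.03 to 1.02. Over all 12748 genes tested the median was 0.01 and 51.1% of genes lay above 0. By limma with Benjamini-Hochberg adjustment at 0.05, 1 mitotic kinesin rose and none fell. Among all genes tested 4.53% were called, 3.88% as higher and 0.651% as lower.

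Kif22, a chromokinesin that pushes chromosome arms toward the spindle equator, was the mitotic kinesin called. The gene (ENSMUSG00000030677) lies on GRCm38 chromosome 7 from 127027729 to 127042471 on the minus strand. It stood at 20.9, 16.7, 12.4 and 9.69 FPKM in the control libraries, in the order of replicates 1 to 4 that is used throughout, and at 35.3, 34.4, 24.6 and 27.3 FPKM in the CKO libraries. Every CKO library was above every control library, as in 12.7% of all genes tested. The mean rose from 14.9 ± 4.90 to 30.4 ± 5.26 FPKM (SD, n = 4 each), a ratio of 2.04. On the log2 scale the difference was 1.02 (SE 0.25; limma adjusted p = 0.0497). That call held in 4 of 19 alternative fits, while the sign was positive in all 19, with log2 fold changes from 0.40 to 1.19. Kif22 shares 1.96% of its exon bases with an antisense gene. It also has a processed pseudogene, Kif22-ps, that is not among the rows of the table. Reads of Kif22 could therefore be split or shared, by an amount that was not measured.

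The motors of the central spindle came next in level. Kif23, the motor subunit of the centralspindlin complex that organises the cleavage site, had 13.2, 9.64, 7.85 and 5.11 FPKM in control and 13.9, 18.1, 14.1 and 7.27 FPKM in CKO. CKO replicates 1 to 3 were above every control library, and CKO replicate 4 was below 3 of the controls (log2 fold change 0.53, SE 0.32, limma adjusted p = 0.328). Kif20a, which brings the chromosomal passenger complex to the central spindle, had 12.7, 10.9, 8.45 and 6.29 FPKM in control and 12.3, 16.4, 17.7 and 2.71 FPKM in CKO. Its groups overlapped, with the lowest value of all in CKO replicate 4 (log2 fold change 0.13, SE 0.47, limma adjusted p = 0.892). Kif20a shares 29.3% of its exon bases with Cdc23 on the opposite strand, and whether the counting used strand is unknown, so its level is uncertain.

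Most other mitotic motors had the same layout, with CKO replicates 1 to 3 high and CKO replicate 4 low, and Kif2c was an exception, with 6.77 FPKM in CKO replicate 4 against 6.41 FPKM in CKO replicate 3. For all 10 genes, each of CKO replicates 1 to 3 exceeded the control mean. Kif18a, which damps the oscillation of chromosomes at metaphase, had 3.24, 3.40, 2.71 and 1.73 FPKM in control and 5.02, 5.81, 6.89 and 0.723 FPKM in CKO. Kif15, which helps to keep the spindle bipolar, had 8.85, 7.82, 5.80 and 3.93 FPKM in control and 12.9, 12.7, 10.9 and 3.45 FPKM in CKO. Kif4, a chromokinesin of the spindle midzone, had 6.66, 5.78, 5.49 and 3.29 FPKM in control and 9.10, 10.6, 8.36 and 4.81 FPKM in CKO. These 3, described in detail after their values were seen, had log2 fold changes of 0.39, 0.45 and 0.53 and limma adjusted p of 0.606, 0.493 and 0.2498. Kif4 shares 15.1% of its exon bases with Pdzd11 on the opposite strand. It also has a transcribed processed pseudogene, Kif4-ps, that is not among the rows of the table. The motors Kif11, which slides spindle microtubules apart, and Kif18b, which shortens astral microtubules, had log2 fold changes of 0.26 and 0.27. Kif2c, the centromeric depolymerase, was at 0.47 and Kif20b, a motor of late cytokinesis, at 0.03.

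**Figure D1:**
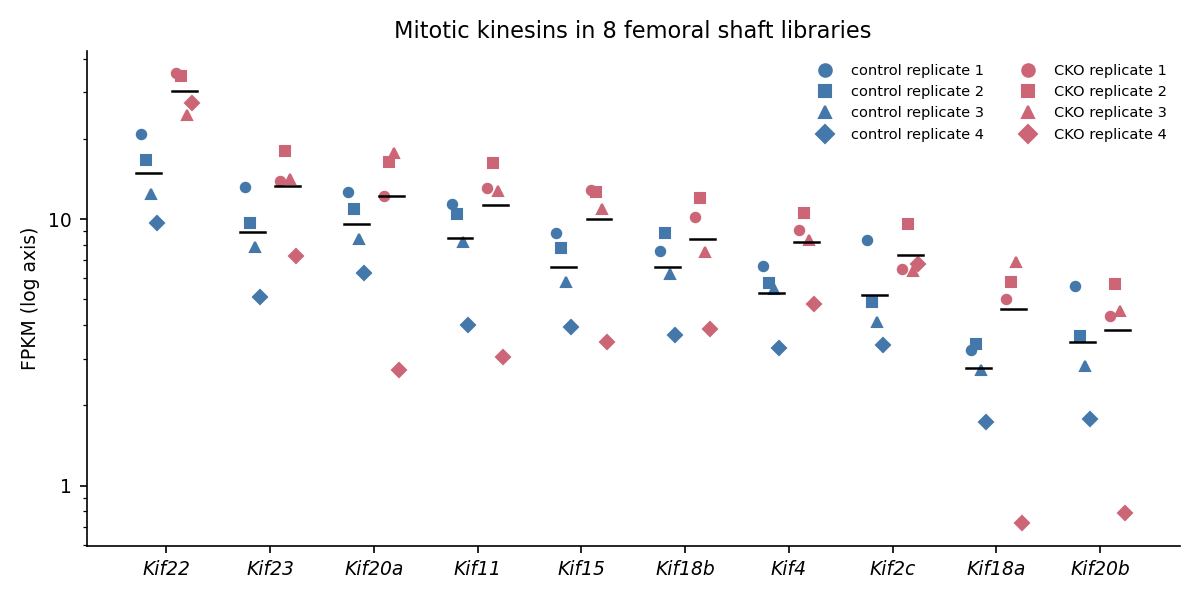
FPKM of the 10 mitotic kinesins on a log axis, for 4 control libraries (blue) and 4 CKO libraries (red), with a symbol for each replicate number and a black line at each group mean. Only for Kif22 do the groups stand clear of each other, and CKO replicate 4 (red diamond) lies lowest of its group for 8 of 10 genes.

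The libraries ranked alike across these genes. Control replicate 4 was the lowest control for 10 of 10 mitotic kinesins and control replicate 1 the highest for 8. CKO replicate 4 was the lowest CKO library for 8 of 10 and CKO replicate 2 the highest for 6. The sums over the 10 genes were 98.4, 82.0, 64.0 and 42.9 FPKM for the control libraries, against 123, 141, 114 and 60.8 FPKM for the CKO libraries. The spread within each genotype was thus wide, and the sum in CKO replicate 4 lay below those of 3 control libraries. The B lineage marker sum in the same order was 447, 196, 125 and 76.5 FPKM in control and 469, 543, 209 and 344 FPKM in CKO. In control both sums had the same order of libraries. The neutrophil sum was 4310, 3607, 3181 and 925 FPKM in control, again in that order. In CKO it was 6530, 13259, 28540 and 9956 FPKM, in another order. The megakaryocyte sum was 179, 157, 80.9 and 20.7 FPKM in control, in the same order, and 572, 266, 372 and 346 FPKM in CKO. The erythroid sum had another order in control, with 5467, 10525, 8621 and 3086 FPKM. In CKO the erythroid sum was 19517, 12803, 18764 and 56055 FPKM, highest in CKO replicate 4. The part of marrow content in the mitotic kinesin levels was not tested by these sums.

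Leaving out CKO replicate 4 raised the count of mitotic kinesins called from 1 to 4 of 10. Kif22, Kif18a, Kif4 and Kif15 then rose, with log2 fold changes of 1.06, 0.89, 0.74 and 0.84 and limma adjusted p of 0.0327, 0.0311, 0.0492 and 0.0472. In that fit 12.1% of all genes were called higher, and the median of the mitotic kinesins was 0.74 against 0.11 for all genes. Leaving out any of control replicates 2 to 4 or CKO replicates 1 to 3 left 0 mitotic kinesins called by limma. In each of these fits limma called 0 of all genes tested, so the loss was not particular to the kinesins. Kif22 was the only mitotic kinesin at an unadjusted p under 0.05 in each of them. The limma adjusted p of Kif22 was 0.138, 0.189 and 0.133 without control replicates 2, 3 and 4 and 0.0902, 0.0850 and 0.0928 without CKO replicates 1, 2 and 3. At that unadjusted level 15.9% of all genes were higher and 9.45% lower in CKO with all libraries, and 24.5% were higher without CKO replicate 4, where 7 of 10 mitotic kinesins were.

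The promoters of the mitotic kinesins shared a short sequence that the choice of members did not use. Genes transcribed late in the cell cycle are known to carry a cell cycle homology region, read by the DREAM and MuvB complexes, whose common form is TTTGAA, often beside CCAAT boxes bound by NF-Y. Both motifs were searched on both strands in RefSeq promoters of GRCm38.p6, from 250 bases before to 50 bases after the transcription start. Promoters were found for 9 of 10 mitotic, 10 of 13 transport and 7 of 8 other kinesins. TTTGAA was present for 8 of the 9 mitotic kinesins (all but Kif18a), 1 of the 10 transport kinesins (Kif1a) and 2 of the 7 others (Kif14 and Kif26b), against 20.2% of all 27025 genes with a promoter (17.9% of 32851 promoters). CCAAT was present for 5 of the 9 mitotic kinesins (Kif4, Kif11, Kif18b, Kif22 and Kif23), 3 of the 10 transport kinesins and 3 of the 7 others, against 41.1% of all genes (37.4% of promoters). The 2 motifs were counted separately and can share at most 1 base. A match describes the letters and does not show that a factor binds.

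The stretch from 75 bases before to 25 bases after the start is printed for the 7 mitotic kinesins that hold TTTGAA there, as do 6.09% of all genes (5.24% of promoters), a window set after the positions were seen. Capitals mark TTTGAA or its reverse complement and CCAAT or its reverse complement, and each sequence reads 5′ to 3′ on the strand of the gene.
Kif22 (chr7:127042396-127042495, - strand): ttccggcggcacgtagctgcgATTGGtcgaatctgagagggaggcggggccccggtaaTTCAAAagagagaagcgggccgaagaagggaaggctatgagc
Kif23 (chr9:61946775-61946874, - strand): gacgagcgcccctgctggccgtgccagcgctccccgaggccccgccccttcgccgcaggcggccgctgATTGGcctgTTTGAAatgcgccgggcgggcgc
Kif11 (chr19:37376307-37376406, + strand): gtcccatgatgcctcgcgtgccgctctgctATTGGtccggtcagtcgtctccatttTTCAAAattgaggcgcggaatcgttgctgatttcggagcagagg
Kif15 (chr9:122951006-122951105, + strand): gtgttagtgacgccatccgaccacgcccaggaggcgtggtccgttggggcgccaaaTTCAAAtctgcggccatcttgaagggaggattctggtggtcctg
Kif18b (chr11:102925100-102925199, - strand): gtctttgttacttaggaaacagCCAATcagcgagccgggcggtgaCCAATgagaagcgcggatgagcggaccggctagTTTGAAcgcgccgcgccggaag
Kif4 (chrX:100625990-100626089, + strand): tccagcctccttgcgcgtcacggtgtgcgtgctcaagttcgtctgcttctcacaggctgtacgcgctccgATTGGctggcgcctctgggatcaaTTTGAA
Kif20b (chr19:34922283-34922382, + strand): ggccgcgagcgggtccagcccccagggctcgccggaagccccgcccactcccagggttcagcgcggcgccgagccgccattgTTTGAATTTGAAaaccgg
For contrast, the same stretch is shown of the mitotic kinesin without TTTGAA, of the transport kinesin with the highest level and of the kinesin that fell, none of which has a capital.
Kif18a (chr2:109280663-109280762, + strand): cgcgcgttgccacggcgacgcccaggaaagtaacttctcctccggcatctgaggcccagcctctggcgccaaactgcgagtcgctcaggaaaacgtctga
Kif1c (chr11:70700473-70700572, + strand): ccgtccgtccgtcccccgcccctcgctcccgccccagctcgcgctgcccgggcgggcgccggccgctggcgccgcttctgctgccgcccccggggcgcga
Kif26a (chr12:112146133-112146232, + strand): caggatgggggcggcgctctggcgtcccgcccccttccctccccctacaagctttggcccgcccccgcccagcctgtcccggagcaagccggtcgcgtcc
In these stretches TTTGAA begins 17 bases before the start in Kif22, 19 bases before it in Kif11 and Kif15, and at bases 3, 4, 8, 14 and 20 after it in Kif23, Kif18b, Kif20b (at 8 and again at 14) and Kif4.

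Transport kinesins had lower mean levels in CKO for most members, and none passed the test. Of 13, 11 were kept by the filter of at least 1 FPKM in at least 4 libraries. Of these 11, 10 had a log2 fold change below 0, and the median was -0.35 with a range from -0.76 to 0.09. At an unadjusted p under 0.05, 3 were lower and none was higher, where 9.45% of all genes were lower and 15.9% higher. Limma called 0 after adjustment, where 0.651% of all genes were called lower and 3.88% higher.

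The most abundant transport kinesins were the general carriers. Kif1c, which carries integrins and other vesicle cargo, had 24.7, 29.1, 25.1 and 33.0 FPKM in control and 25.3, 22.7, 22.3 and 14.8 FPKM in CKO. The groups overlapped through CKO replicate 1 (log2 fold change -0.40, SE 0.21, limma adjusted p = 0.274). Kif5b, the ubiquitous heavy chain of conventional kinesin, had 20.7, 21.7, 19.7 and 15.002 FPKM in control and 26.2, 23.3, 21.5 and 6.39 FPKM in CKO. CKO replicates 1 and 2 were above all controls and CKO replicate 4 far below them (log2 fold change -0.14, 95% interval -0.98 to 0.70, limma adjusted p = 0.848).

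The most negative values were those of Kif13b, Kif1b, Kif13a and Kif21a. Kif13b, which moves membrane-associated scaffold proteins, had 6.40, 10.6, 9.87 and 8.79 FPKM in control and 6.06, 6.88, 3.05 and 3.89 FPKM in CKO. Only control replicate 1 lay within the range of the CKO libraries (log2 fold change -0.76, SE 0.26, limma adjusted p = 0.108). Kif1b, a carrier of mitochondria and synaptic vesicle precursors, had 6.01, 9.35, 9.85 and 9.80 FPKM in control and 6.16, 6.38, 2.70 and 4.66 FPKM in CKO. Control replicate 1 was again inside the CKO range (log2 fold change -0.74, SE 0.27, limma adjusted p = 0.123). Kif13a, an endosome carrier, had a log2 fold change of -0.73, and Kif21a, which limits microtubule growth, of -0.57.

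None of the subunits of the ciliary motor family passed the test. Kif3a and Kif3b, whose heterodimer drives intraflagellar transport, averaged 3.83 ± 1.04 and 5.14 ± 0.69 FPKM (SD, n = 4) in control. Their CKO means were 4.09 ± 0.71 and 5.20 ± 1.44 FPKM. The 95% intervals of their log2 fold changes, -0.39 to 0.57 and -0.49 to 0.47, hold both signs. Kif3c, which pairs with Kif3a in neurons, had 2.20, 1.55, 1.75 and 2.10 FPKM in control and 1.45, 1.53, 1.13 and 0.983 FPKM in CKO. Every CKO value was below every control value, with control replicate 2 and CKO replicate 2 nearly level, as in 6.00% of all genes tested (log2 fold change -0.35, SE 0.18, limma adjusted p = 0.243). Kif3c shares 35.3% of its exon bases with an antisense gene. Kif16b, an endosome carrier, and Kif21b, which acts on microtubule dynamics, had log2 fold changes of -0.31 and -0.02.

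**Figure D2:**
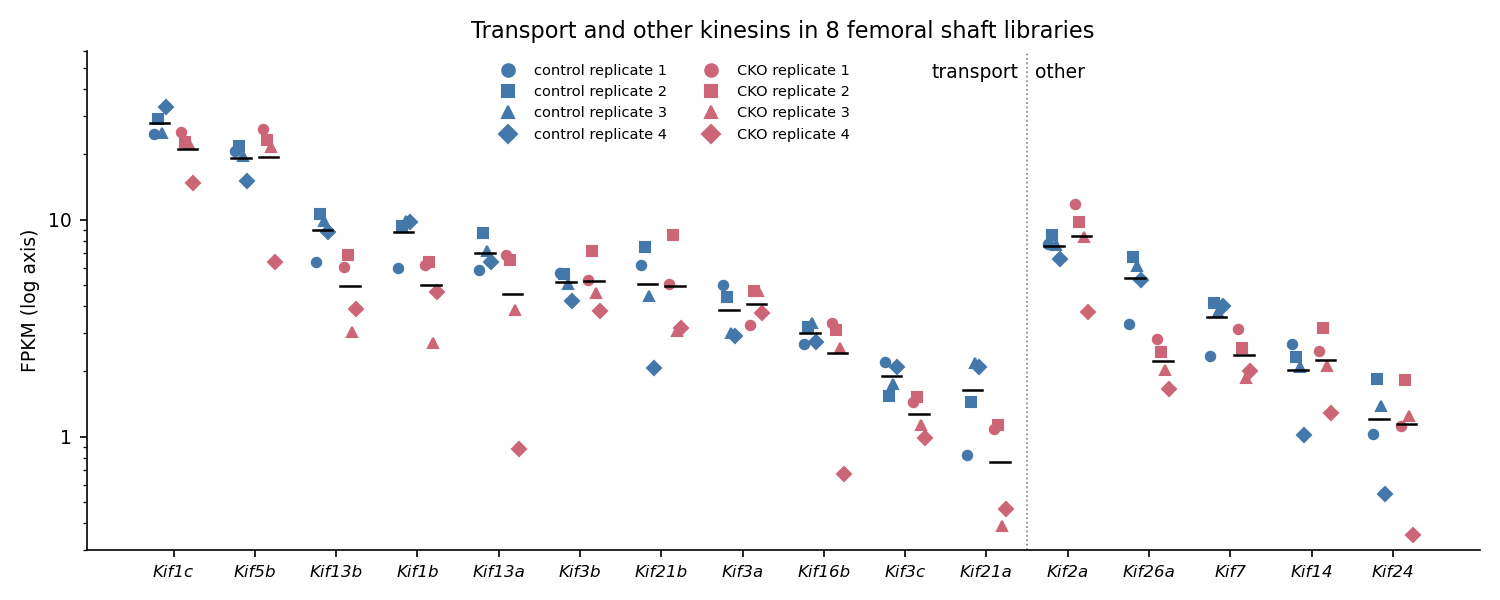
FPKM of the 11 transport kinesins and 5 other kinesins kept by the filter, on a log axis, with control libraries in blue, CKO libraries in red and black lines at the group means. CKO replicate 4 (red diamond) is the lowest CKO library for 6 of the 11 transport kinesins, and Kif26a and Kif3c are the genes whose groups do not overlap.

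Among the other kinesins Kif26a fell. KIF26A is an atypical kinesin without motor activity, known in mouse for restraining growth factor signalling in enteric neurons. The gene (ENSMUSG00000021294) lies on GRCm38 chromosome 12 from 112146208 to 112181747 on the plus strand. It stood at 3.30, 6.75, 6.13 and 5.28 FPKM in control and at 2.81, 2.44, 2.03 and 1.66 FPKM in CKO. All CKO values were below all control values, as in 6.00% of all genes tested, the nearest being control replicate 1 and CKO replicate 1. The mean fell from 5.36 ± 1.502 FPKM to 2.23 ± 0.499 FPKM (SD, n = 4 each). The difference on the log2 scale was -0.96 (SE 0.23; limma adjusted p = 0.0485). The call held in 3 of the 18 alternative fits that kept the gene and the sign in all 18, with log2 fold changes from -1.31 to -0.60. Without CKO replicate 4 the log2 fold change was -0.87 (limma adjusted p = 0.0373), and with the trend against transcript length removed it was -0.60 (adjusted p = 0.153). The call was lost without control replicate 2, 3 or 4 (limma adjusted p = 0.157, 0.189 and 0.125) and without CKO replicate 1, 2 or 3 (0.0669, 0.0704 and 0.116). Limma called 0 of all genes tested in each of those fits.

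The rest of the class showed no call. Kif2a, a microtubule depolymerase of spindle poles and axons, had 7.69, 8.48, 7.62 and 6.55 FPKM in control and 11.8, 9.75, 8.28 and 3.75 FPKM in CKO (log2 fold change 0.04, 95% interval -0.61 to 0.69). It shares 19.2% of its exon bases with Dimt1 on the opposite strand. Kif7, a ciliary regulator of GLI factors in Hedgehog signalling, had 2.36, 4.12, 3.75 and 4.02 FPKM in control and 3.14, 2.55, 1.86 and 2.01 FPKM in CKO. Control replicate 1 lay below CKO replicates 1 and 2, so the groups overlapped (log2 fold change -0.42, SE 0.22, limma adjusted p = 0.251). Kif14 averaged 2.03 ± 0.71 (SD, n = 4) in control and 2.27 ± 0.79 FPKM in CKO, with a log2 fold change of 0.11, and Kif24, a centriolar depolymerase, had a log2 fold change of -0.05.

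The 5 kinesins left out by the filter were below 1 FPKM in every library. Kif1a, the neuronal carrier of synaptic vesicle precursors, ranged from 0.181 to 0.247 FPKM in control and from 0.0270 to 0.169 FPKM in CKO, so its groups did not overlap. Kif17, of dendrites and cilia, lay between 0.119 and 0.501 FPKM over all libraries. Kif19a, a depolymerase that sets the length of motile cilia, ranged from 0.184 to 0.314 FPKM in control and from 0.394 to 0.442 FPKM in CKO. Its groups did not overlap either. Among the genes kept by the filter, groups did not overlap for 12.7% with CKO higher and 6.00% with CKO lower. Kif9 and Kif26b, a motor of motile cilia and a kinesin needed in mouse kidney development, averaged 0.293 and 0.137 FPKM. FPKM files carry no counts, so the number of reads behind such low values is unknown. None of the 31 kinesins was listed at 0 in any library.

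**Figure D3:**
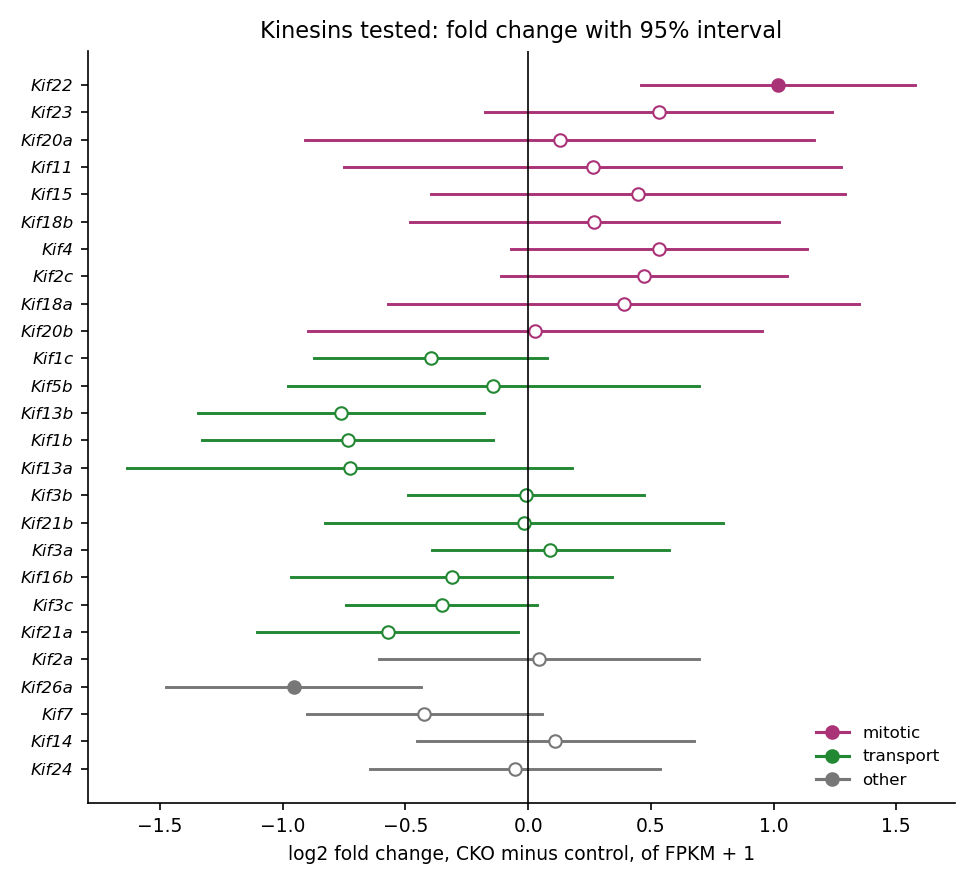
Log2 fold change of FPKM + 1, CKO minus control, with 95% intervals from limma for the 26 kinesins tested, coloured by class, where filled circles have an adjusted p under 0.05. All 10 mitotic kinesins lie above 0 and 10 of 11 transport kinesins below it, and 21 of these 26 intervals include 0.

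The balance between the classes also differed between the groups. Mitotic kinesins made up 48.5%, 39.0%, 36.1% and 28.4% of the summed kinesin FPKM in control replicates 1 to 4 and 52.1%, 55.6%, 56.9% and 53.2% in CKO replicates 1 to 4. All 4 CKO libraries were above all 4 controls, CKO replicate 4 included, and they spread less (54.4% ± 2.16 against 38.0% ± 8.27, SD, n = 4 each). A share within a library does not depend on how libraries are scaled to each other. The shares were not adjusted for the trend of fold change with transcript length. Median lengths of the kinesins tested were 3536 bases in the mitotic and 6684 bases in the transport class. Without Kif22 in either sum the shares were 23.5% to 42.6% in control and 38.5% to 50.8% in CKO, so CKO replicate 4 at 38.5% then lay below control replicate 1. The ratio of mitotic to transport kinesins was 0.478 to 1.13 in control and 1.35 to 1.62 in CKO. No test was made on these sums, because the members were chosen with earlier results known.

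Mitotic kinesins kept a near constant ratio to their partners in division. Relative to the summed FPKM of 28 spindle and cytokinesis genes, the 10 motors amounted to 16.2%, 16.6%, 15.4% and 16.0% in control replicates 1 to 4 and to 15.2%, 16.3%, 14.9% and 14.6% in CKO replicates 1 to 4. The groups overlapped. Mki67, the proliferation marker, had 49.5, 47.4, 38.6 and 19.0 FPKM in control and 71.4, 74.2, 50.9 and 24.5 FPKM in CKO, with control replicate 4 and CKO replicate 4 the lowest of their groups as for the kinesins. The ratio of Kif22 to Mki67 was 0.321 to 0.511 in control, 0.463 to 0.494 in CKO replicates 1 to 3 and 1.12 in CKO replicate 4.

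**Figure D4:**
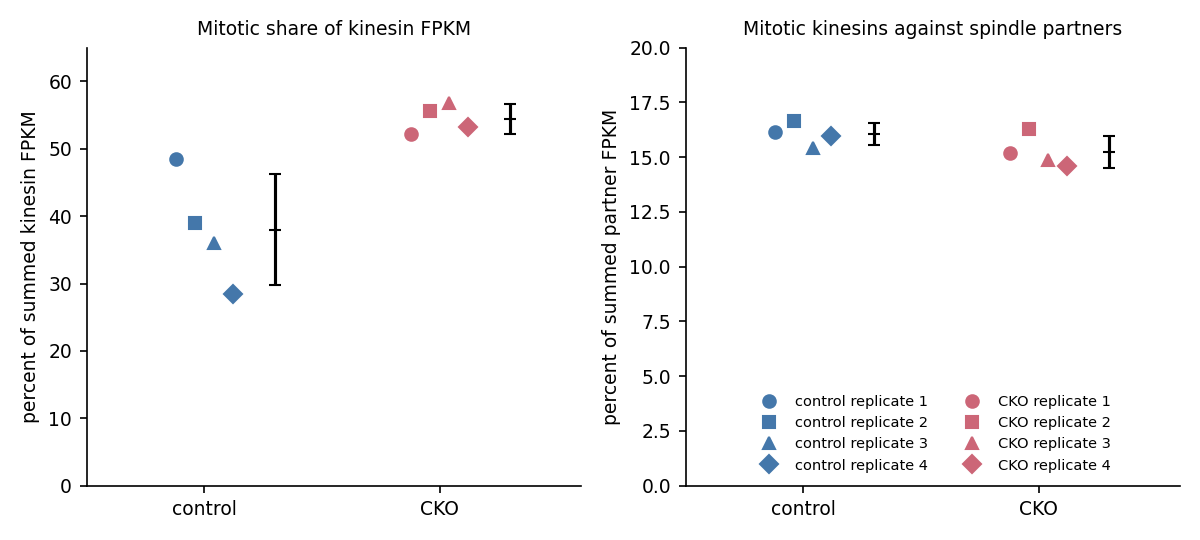
Left, the percent of summed kinesin FPKM that came from the 10 mitotic kinesins, and right, the sum of the 10 mitotic kinesins as a percent of the sum of 28 spindle and cytokinesis genes, per library, with mean and SD beside each group of 4. The left values run from 28.4% to 48.5% in control and from 52.1% to 56.9% in CKO. The right values run from 15.4% to 16.6% in control and from 14.6% to 16.3% in CKO.

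Of the spindle and cytokinesis partners, 2 of 28 rose, none fell and 25 had a log2 fold change above 0, with a median of 0.48. Over all genes tested 3.88% were called higher and 0.651% lower. Birc5, the survivin subunit of the chromosomal passenger complex, had 45.2, 24.7, 27.3 and 21.1 FPKM in control and 95.4, 71.2, 93.9 and 108 FPKM in CKO (log2 fold change 1.65, SE 0.26, limma adjusted p = 0.0388). All CKO libraries were above all controls, as in 12.7% of all genes tested, and CKO replicate 4 was the highest. Cdk1, the kinase that drives entry into mitosis, rose by 0.97 on the log2 scale (limma adjusted p = 0.0492), with means of 11.6 ± 2.25 and 23.9 ± 5.63 FPKM (SD, n = 4 each). Without CKO replicate 4, 10 of the 28 were called, where 12.1% of all genes were called higher. TTTGAA was found in promoters of 18 of the 24 partners that had one, and CCAAT likewise in 18 of 24.

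Of 6 kinesins with other symbols none passed. Kifc1, the minus-end motor that focuses spindle poles, had 16.6, 15.1, 12.1 and 8.86 FPKM in control and 31.7, 32.2, 24.6 and 16.5 FPKM in CKO. Only CKO replicate 4 and control replicate 1 crossed (log2 fold change 0.93, SE 0.27, limma adjusted p = 0.0695). Kifc1 and Kifc5b are near-identical copies whose reads the counting could split. Kifc3, a minus-end motor of cell junctions, averaged 9.40 ± 0.68 FPKM in control and 6.27 ± 1.17 FPKM in CKO, and the groups did not overlap (SD, n = 4 each; limma adjusted p = 0.127).

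Genes that serve the transport kinesins gave no call either. Of 17 light chains and cargo adaptors tested, 14 had a log2 fold change below 0, with a median of -0.22, and Trak2 and Arl8a, which link kinesin to mitochondria and lysosomes, were at 0.21 and -0.18. Of 24 dynein and dynactin genes, the opposite motor and its activator, 13 were above 0 (median 0.04), and the light chain Dynlrb1 averaged 64.8 and 116 FPKM and the dynactin subunit Dctn2 46.0 and 65.9 FPKM (limma adjusted p = 0.0596 and 0.176). Of 21 intraflagellar transport genes 12 were above 0 (median 0.05), and Ift20 and Ift27 had log2 fold changes of 0.84 and 0.88 (adjusted p = 0.111 and 0.202). For Ift27, CKO replicate 4 had 53.2 FPKM while the remaining CKO libraries had 12.3 to 13.9 FPKM. At an unadjusted p under 0.05 by limma, none of the light chains and adaptors, 5 of 24 dynein and dynactin genes and 3 of 21 intraflagellar genes differed. Over all genes 15.9% were higher and 9.45% lower at that level.

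Transcripts of the mitotic kinesins tended to be shorter than those of the transport kinesins, with overlapping ranges. The longest coding transcript of the kinesins tested ranged from 2115 to 5564 bases in the mitotic class (median 3536) and from 3161 to 10233 bases in the transport class (median 6684). Kif22 had the shortest transcript of all 26 and Kif1b the longest. Over all genes the median log2 fold change went from 0.90 in the decile with the shortest transcripts to -0.41 in the decile with the longest, and the Spearman correlation across the 26 kinesins, which are not independent, was -0.76. The range of mitotic lengths covers deciles whose median log2 fold change was 0.23 to -0.31.

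With the trend against length removed, the mitotic kinesins kept their median and the transport kinesins did not. The medians were 0.46 and -0.0034, against 0.42 and -0.35 as deposited. All 10 mitotic kinesins stayed above 0, and 5 of the 11 transport kinesins were above 0. Limma then called 0 genes of 12091 at the adjusted threshold. At an unadjusted p under 0.05, 4 of 10 mitotic kinesins (Kif4, Kif15, Kif22 and Kif23) and none of the transport kinesins differed, where 7.87% of all genes were higher and 9.36% lower. With CKO replicate 4 also left out, 7 of 10 mitotic kinesins were higher at that level, against 14.6% of all genes.

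**Figure D5:**
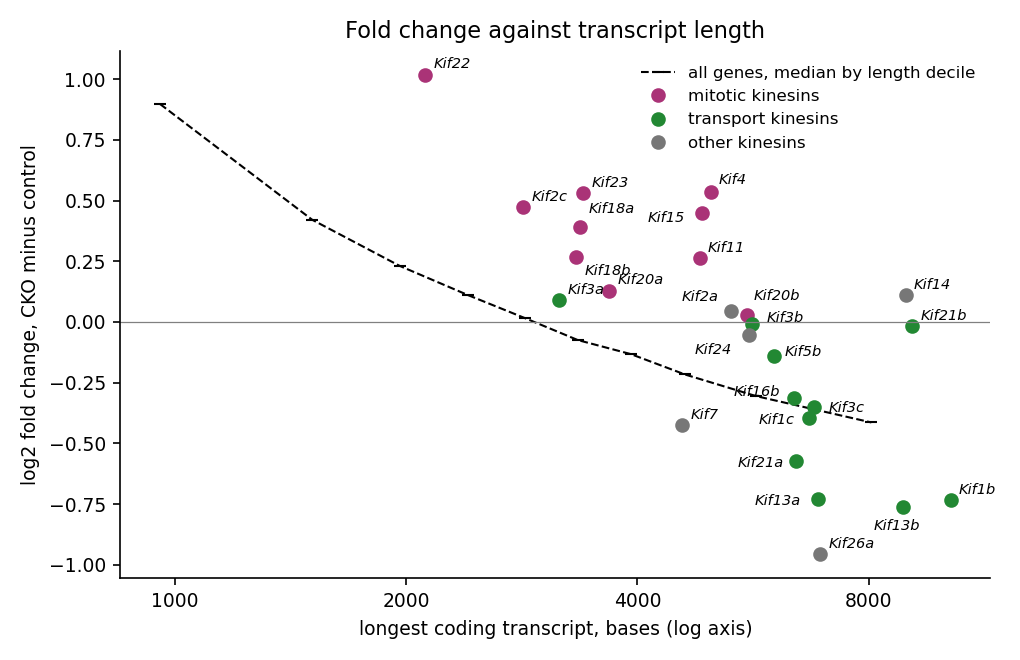
Log2 fold change of each kinesin tested against the length of its longest coding transcript (log axis), coloured by class, with the median of all genes in each of 10 length bins as a dashed line. All 10 mitotic kinesins lie above the dashed line at their length, and transport kinesins lie on both sides of it.

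Fits with covariates for marrow markers and Y-linked genes gave other values. With the mean of the marrow markers as a covariate, the median log2 fold change was -0.35 for mitotic and -0.50 for transport kinesins, and with the Y-linked mean it was -0.17 and -0.47. Limma called 0 genes in either fit, and the marrow covariate did not overlap between the genotypes (3.88 to 5.74 in control and 6.03 to 6.40 in CKO), so the 2 cannot be told apart. Kif22 was at 0.40 and 0.68 in these fits and Kif26a at -0.88 and -0.72. Among libraries without Y-linked expression, Kif22 averaged 20.9 FPKM in 1 control and 31.4 FPKM in 3 CKO libraries, and among those with it, 12.9 FPKM in 3 controls and 27.3 FPKM in 1 CKO library. For Kif26a the values were 3.30 and 2.43 FPKM, and 6.05 and 1.66 FPKM. Each of these contrasts has an arm of 1 library, which is CKO replicate 4 among the libraries with Y-linked expression. Of the 10 mitotic kinesins, 8 were higher in CKO among libraries without Y-linked expression and 2 (Kif22 and Kif2c) among those with it. Kif20a, for example, was at 12.7 FPKM in control and 15.4 FPKM in CKO in the first class and at 8.54 and 2.71 FPKM in the second. Of the 13 transport kinesins, 10 and 12 were lower in CKO in the respective classes. The part of sex in these values was not tested.

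The authors' deposited table, made by a test that no header names, had its lowest kinesin p-values at Kif26a and Kif22. Its p-values, adjusted here over its 14457 genes, were under 0.05 for 4 of 31 kinesins and for 14.0% of all its genes, so the kinesins' share lay near the background. In the authors' deposited table Kif26a had a log2 fold change of -1.18 (adjusted p = 0.000247), Kif22 of 0.92 (0.00658), Kif13b of -0.82 (0.0247) and Kif1b of -0.75 (0.0364), adjusted by the Benjamini-Hochberg method. These values come from the same libraries and are no independent support.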

How the data were processed

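Bulk RNA of 4 control and 4 CKO femoral shafts was analysed, with group and replicate number taken from the sample titles. Without role or order, the submitters' processing notes name DESeq2 1.20.0, HISAT2 2.0.5, fastp, featureCounts 1.5.0-p3 and CASAVA 1.8, and the build GRCm38. The deposited table gives FPKM for each library, per the file headers, with the authors' p-value and the authors' log2 fold change for each gene. The sources used here do not give the gene annotation or strand setting. Depth is unknown. A search of low FPKM values for steps of whole reads found none (mean distance from a whole number 0.234 to 0.238, against 0.25 by chance for any given step size). The lowest distance over many step sizes was taken, with exon lengths from GENCODE M21, which may differ from those of the authors. The search therefore cannot show that steps are absent. No count model was run and no counting interval is given.

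The filter kept the 12748 genes that reached 1 FPKM in 4 or more libraries and left out 1709. For these, limma 3.58.1 (R 4.3.3) with an intensity trend compared the genotypes on log2(FPKM + 1), without covariates. Benjamini-Hochberg adjustment ran over all genes kept. A fold change on this scale understates that of low genes. The fit was tested on simulated data. Coordinates, overlaps and transcript lengths came from GENCODE M21 on GRCm38, and promoters from RefSeq on GRCm38.p6. Of the 31 kinesins, those past the threshold or with groups that did not overlap, and the 3 with the highest mean in each class, were named by rule. For each partner list, kinesins with other symbols included, the rule named up to 3 members past the threshold or otherwise the 2 most abundant. Other kinesins described were chosen after their values were seen. The members and lists were chosen with earlier results of these data known.

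Alternatives were median-of-ratios scaling, quantile normalization, equal FPKM totals, no filter, a filter at 5 FPKM, a pseudocount of 0.1, a fit after a loess curve on transcript length (span 0.4) was subtracted, replicate number as a block, marrow and Y-linked covariates and leaving out each library. Removing the length trend without CKO replicate 4 was added after seeing the data.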

Additional observations from a re-analysis of the deposited data

Results flagged for a closer look

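Of 52 groups of 4 libraries tested over the 26 kinesins, 2 held a library far from the other members of its group by Dixon's criterion, where chance gives about 1 in 20. Kif1b was at 6.01 FPKM in control replicate 1 against 9.35 to 9.85 FPKM in the other control libraries. Kif2c was at 9.58 FPKM in CKO replicate 2, and the remaining CKO libraries had 6.41 to 6.77 FPKM.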

How the results depend on the processing

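The mitotic kinesins had a higher median log2 fold change than the transport kinesins in all 19 alternative fits, by 0.14 (marrow covariate) to 0.98 (without CKO replicate 4), against 0.77 as reported. The order therefore held, while the calls did not. The count of mitotic kinesins called, 1 as reported, was 0 with median-of-ratios scaling, quantile normalization, equal FPKM totals, no filter, the pseudocount of 0.1, the length trend removed and either covariate, and 0 to 4 without single libraries. Removing the length trend without CKO replicate 4 gave 2 mitotic kinesins, 0 other kinesins and 2 with other symbols. It also gave 1 each of the adaptor, dynein and intraflagellar lists, where 234 of all 12004 genes were called higher and 384 lower. The medians were then -0.054 for transport and 0.28 for other kinesins. The count of other kinesins called, 1 as reported, was 0 in each of those fits except quantile normalization, and also with the 5 FPKM filter, which leaves Kif26a out, and with the replicate block, and it was 0 to 1 without single libraries. The count of transport kinesins called was 0 throughout.

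Equal FPKM totals moved the median of all genes to -0.37. Relative to it the mitotic median was 0.42 and the transport median -0.26, where the values as fitted were 0.05 and -0.63, and that of other kinesins was -0.36. The mitotic median was -0.35 and -0.17 with the marrow and Y-linked covariates and 0.25 to 0.74 without single libraries. The transport median was -0.0034 with the length trend removed and -0.46 to -0.24 without single libraries. The median of other kinesins was -0.52 with the marrow covariate and -0.21 to 0.15 without single libraries. The cause of these shifts was not tested.

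Over all genes 578 were called as reported, 837 with the 5 FPKM filter (of 8521 genes), 358 with quantile normalization, 381 without a filter and 274 with the replicate block. Limma called 0 with median-of-ratios scaling, equal totals, the length trend removed and either covariate (at an unadjusted p under 0.05, 1917, 612, 951, 972 and 1552 genes were higher and 1480, 3322, 1132, 443 and 650 lower), and 0 to 1879 when single libraries were left out. Of the spindle partners, 2 as reported, 1 was called without a filter and with the pseudocount of 0.1, 0 in the other settings that called no mitotic kinesin except quantile normalization, and 0 to 10 without single libraries. Kinesins with other symbols gave 0 to 3 calls and dynein and dynactin genes 0 to 4 without single libraries, and dynein and dynactin genes 1 with the 5 FPKM filter.

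For Slc26a2 the log2 fold change was -1.34 as reported and -1.35 (median of ratios), -1.65 (equal totals), -0.95 (length trend removed), -1.52 (marrow covariate) and -1.35 (Y-linked covariate), none of them past the adjusted threshold, and -1.56 to -1.16 without single libraries. The replicate numbers were not shown to pair the libraries: same-numbered deviations from the group means correlated at -0.03, 0.23, -0.26 and 0.43. With replicate as a block Kif22 kept its call and Kif26a did not (limma adjusted p = 0.0492 and 0.0644). Depth, and with it the counting error of genes under 1 FPKM, was not recovered from FPKM.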
